A study of Mus musculus with 16 samples.

Results

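Scx, Mkx, Tnmd, Thbs4 and Cilp, 5 genes used to recognize tendon cells, were followed through the flexor tendon RNA-seq. Scx and Mkx encode transcription factors, and Tnmd, Thbs4 and Cilp are marker genes. They were taken by symbol from the deposited table, in which all 5 were found among 49568 gene symbols, and all 5 passed the filter on low counts in each comparison. The 16 libraries came from male mice of 9 to 11 weeks, with 4 animals in each of 4 groups. Uninjured tendons of C57BL/6J (C57) and of MRL/MpJ (MRL), an inbred strain known for strong repair of wounds, were compared with tendons of the same strains at 7 days post-injury (dpi), after a laceration through 50% of the width of the deep digital flexor tendon of the third hind digit. The labels name no transgene and no drug. Each library was made from a single tendon, at the injury site for lacerated tendons, with its sheath and surrounding tissue left on. In these bulk samples fewer cells of a type and less RNA per cell therefore cannot be told apart.

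Scx encodes scleraxis, a basic helix-loop-helix protein that marks tendon progenitors and binds the short DNA motif called the E-box. Mkx encodes Mohawk, a homeobox protein that acts in tendon maturation and collagen fibril growth. Tnmd encodes tenomodulin, a transmembrane glycoprotein of differentiated tenocytes and a known target of scleraxis. Thbs4 encodes thrombospondin 4, a pentameric matrix glycoprotein of tendon and muscle attachment, and Cilp encodes cartilage intermediate layer protein, a secreted matrix protein that can bind TGF-β1.

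Scx lies on chromosome 15 from 76457452 to 76459458 on the plus strand (GENCODE M21, GRCm38), inside an intron of Bop1, a ribosome biogenesis gene on the minus strand, with which it shares 0 bp of exon. Tnmd lies on chromosome X from 133850980 to 133865577 (plus strand), Thbs4 on chromosome 13 from 92751590 to 92794818 (minus strand) and Cilp on chromosome 9 from 65265180 to 65280605 (plus strand). The RefSeq promoter windows (GRCm38.p6) of the 3 marker genes are shown because scleraxis acts through E-boxes. They are written 5′ to 3′ on the strand of the gene, and capitals mark each match to CANNTG, whose reverse complement has the same pattern, so that 1 search covers both strands.
Cilp (chr9:65264930-65265229): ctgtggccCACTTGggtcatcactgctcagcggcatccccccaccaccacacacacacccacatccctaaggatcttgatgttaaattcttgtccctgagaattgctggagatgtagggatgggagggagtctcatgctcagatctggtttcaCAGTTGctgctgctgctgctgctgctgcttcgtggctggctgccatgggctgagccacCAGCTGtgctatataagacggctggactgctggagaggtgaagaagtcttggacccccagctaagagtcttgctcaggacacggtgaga
Thbs4 (chr13:92794769-92795068): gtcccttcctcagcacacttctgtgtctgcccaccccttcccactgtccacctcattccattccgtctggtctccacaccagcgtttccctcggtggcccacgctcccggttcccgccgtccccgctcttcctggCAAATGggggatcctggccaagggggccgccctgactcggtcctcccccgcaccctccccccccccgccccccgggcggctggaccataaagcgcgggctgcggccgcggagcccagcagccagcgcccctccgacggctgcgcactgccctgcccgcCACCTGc
Tnmd (chrX:133850758-133851057): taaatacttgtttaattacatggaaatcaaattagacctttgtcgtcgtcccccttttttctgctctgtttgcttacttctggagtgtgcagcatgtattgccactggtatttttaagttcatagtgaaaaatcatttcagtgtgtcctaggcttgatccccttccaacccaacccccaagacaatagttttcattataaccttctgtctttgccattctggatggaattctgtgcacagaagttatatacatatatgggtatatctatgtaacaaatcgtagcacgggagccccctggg
The Cilp window held 3 matches, which began at positions -242, -97 and -39 from the start site, and the Thbs4 window held 2, at -115 and 44. The Tnmd window held 0. Among the 32851 promoter windows of this length, 72.3% held the motif, with a median of 1 match, and 17.6% held 3 or more. A match is a run of letters and not a measured binding site, and the Scx and Mkx promoters are not shown.

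The strain of each library was checked before the genes were compared. Injured libraries defined 18 genes with at least 20 counts in all 4 injured C57 libraries and at most 1 in any injured MRL library, and 25 genes with the opposite pattern. The injured libraries fixed these lists and the uninjured libraries were not used for them. Uninjured C57 replicates 1 to 3 had at least 5 counts for 14 to 17 of the 18 C57-restricted genes and 0 to 2 of the 25 MRL-restricted genes, and uninjured MRL replicates 1 to 3 had 1 to 3 and 24 to 25. The library labelled C57 uninjured replicate 4 had 3 of 18 and 24 of 25, and the library labelled MRL uninjured replicate 4 had 14 of 18 and 0 of 25. Both of these libraries therefore went against their strain labels. They were kept as labelled, and the comparisons that use uninjured tendons were made with and without both of them. The library labelled C57 uninjured replicate 4 also had 7.39% of its counts on 12 epidermis markers, whereas no other library exceeded 0.0897%. In injured C57 replicate 1, 7.31% of counts fell on 12 skeletal muscle markers, and in injured C57 replicate 2 0.233% did, whereas no other library exceeded 0.00176%.

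**Figure D1:**
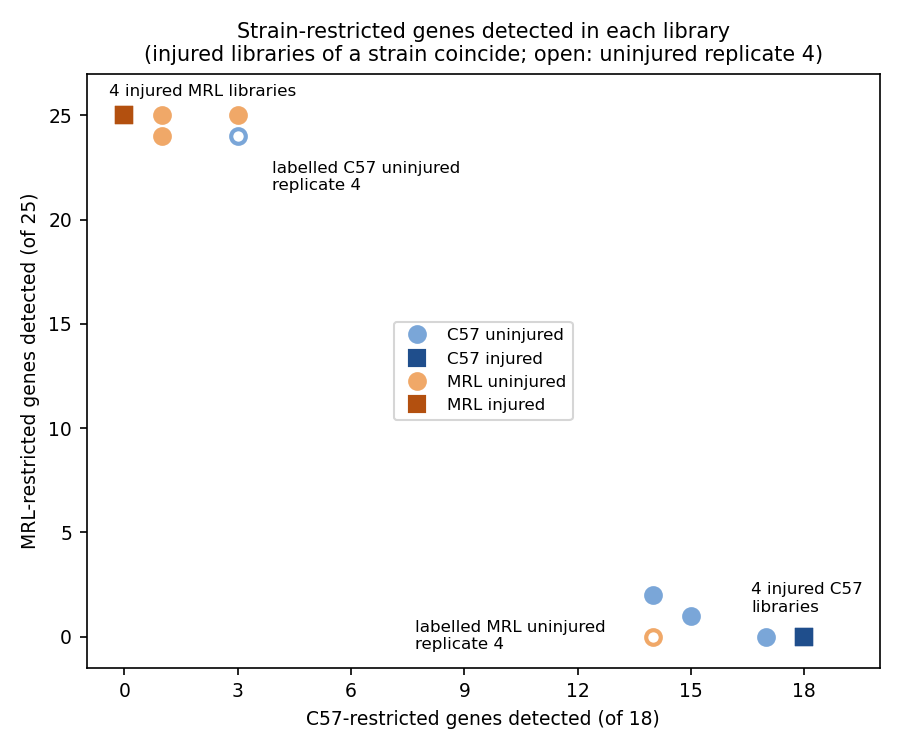
Number of the 18 C57-restricted genes (horizontal axis) and of the 25 MRL-restricted genes (vertical axis) with at least 5 counts in each of the 16 libraries, with circles for uninjured and squares for injured tendons. The open circles are the uninjured replicates 4, and each of them sits with the libraries of the other strain. The injured libraries are at the extremes because they defined the genes.

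All 5 genes were well above the floor of detection in every library. A count of 3, taken as that floor, corresponded to between 0.126 and 0.241 CPM, the count scaled to the library size after TMM adjustment, whereas the lowest count of any of the 5 genes was 383, for Mkx. Per kb of exon, the median over the 16 libraries was 734 CPM per kb for Thbs4 (range 201 to 2266), 718 for Cilp (189 to 1722), 68.8 for Tnmd (24.3 to 456), 50.6 for Scx (21.1 to 91.6) and 23.2 for Mkx (5.61 to 34.6). The matrix protein genes Thbs4 and Cilp thus had more than 10 times the per-length median of the other three genes. Tendon matrix and mature tenocyte genes, a list of 36 genes in the table led by Dcn and Angptl7, took at least 13.3% of counts in each uninjured MRL library and at least 13.5% in each of uninjured C57 replicates 1 to 3. The library labelled C57 uninjured replicate 4 had 4.95%, and injured C57 replicate 1 had the lowest share of the injured tendons, 6.48%.

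Scx, the scleraxis gene, was lowest in the injured C57 tendons. In uninjured C57 replicates 1 to 4 its level was 106, 97.2, 127 and 42.3 CPM, and in injured C57 replicates 1 to 4 it was 50.4, 63.6, 60.6 and 59.5 CPM. In the uninjured MRL tendons it was 164, 172, 113 and 96.1 CPM, and in the injured MRL tendons 184, 139.6, 127 and 92.1 CPM. Every injured C57 library was thus below every injured MRL library, and below every uninjured C57 library other than replicate 4, which had the lowest level of all. At 7 dpi Scx was 2.27-fold higher in MRL than in C57 tendons (log2 difference 1.18 ± 0.21 (SE), 95% interval 0.70 to 1.66, adjusted p = 0.0162, edgeR's quasi-likelihood test), which passed the criteria for a call, namely an adjusted p under 0.05 together with a log2 fold change beyond 1 in either direction. Scx was the sole called gene of the 5 in this comparison of injured strains, in which 3.43% of 14626 tested genes were called. Leaving out injured C57 replicate 4 left the log2 difference at 1.19 with an adjusted p of 0.0608 by the edgeR test, and leaving out any other library kept the call. The injured MRL libraries were also deeper, with 18524170 to 23741648 counts against 12883569 to 16579900 in injured C57 tendon, and the part of depth in this difference was not tested.

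After injury of C57 tendon, Scx was not called, with a log2 fold change of -0.71 ± 0.29 (SE, adjusted p = 0.298, edgeR). Without the library labelled C57 uninjured replicate 4, it was -0.95 ± 0.15 (SE) with a 95% interval of -1.29 to -0.61 and an adjusted p of 0.0103, so the p-value passed its threshold in edgeR and the fold change stayed below the size required for a call. In the MRL tendons the injured and uninjured libraries overlapped, and the log2 fold change was -0.00 ± 0.25 (SE, adjusted p = 0.999, edgeR) with all libraries and -0.13 ± 0.25 (SE) without replicate 4. Uninjured MRL tendons had a log2 difference of 0.53 ± 0.32 (SE) from uninjured C57 tendons, and 0.43 ± 0.18 (SE, adjusted p = 0.223, edgeR) without both replicates 4, neither of which was called. Bop1, whose intron holds Scx, had 51.8 to 93.2 CPM in the injured C57 tendons and 108 to 117 CPM in the injured MRL tendons, a log2 difference of 0.77 ± 0.20 (SE, adjusted p = 0.0610, edgeR). Whether reads of the Bop1 transcript were counted for Scx was not tested, since the strand setting of the counting is not given in the sources used here.

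**Figure D2:**
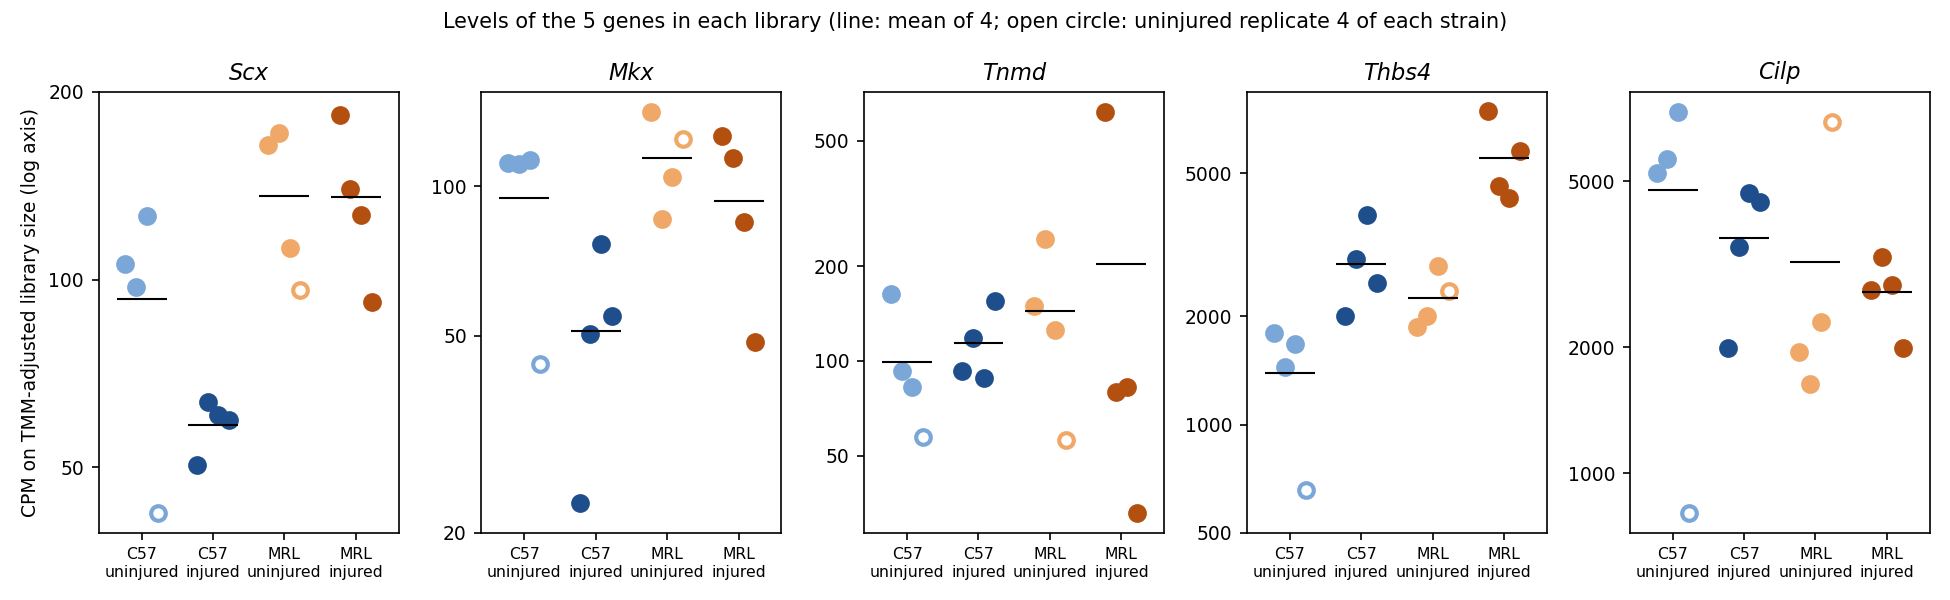
Level of each of the 5 genes in the 16 libraries, in CPM on a log axis, by strain and injury, with a point per library and a line at the mean of the 4. Injured C57 tendons had Scx levels between 50.4 and 63.6 CPM, all below the injured MRL tendons, and injured MRL tendons had Thbs4 levels between 4269 and 7454 CPM, all above the other groups. The open circles are the uninjured replicates 4.

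Mkx, the Mohawk gene, lies on chromosome 18 from 6934518 to 7004780 on the minus strand, and a sense-overlapping transcript, AC148004.2, shares 201 bp of exon with it, over which reads of the pair cannot be told apart. Its level in uninjured C57 replicates 1 to 4 was 112, 111, 113 and 43.9 CPM, and in the injured C57 tendons it was 23.0, 50.4, 76.5 and 54.6 CPM. The first 3 uninjured libraries were within 2 CPM of each other, and all 4 injured libraries were below them. In the uninjured MRL tendons Mkx was at 142, 86.1, 104 and 125 CPM, and in the injured MRL tendons at 127, 114, 84.6 and 48.5 CPM, so those groups overlapped. The log2 fold change after injury in C57 was -0.94 ± 0.39 (SE, adjusted p = 0.296, edgeR), and without the library labelled C57 uninjured replicate 4 it was -1.17 ± 0.31 (SE, 95% interval -1.87 to -0.47, adjusted p = 0.0601). Neither was called. In an alternative chosen after the data were seen, injured C57 replicate 1 was also left out and replicate 2 was kept. Injured C57 replicate 1 had the highest share of muscle markers and the lowest Mkx level. In that fit the log2 fold change was -0.88 ± 0.17 (SE, adjusted p = 0.0178, edgeR). In MRL it was -0.28 ± 0.28 (SE, adjusted p = 0.542, edgeR) with all libraries and -0.22 ± 0.32 (SE) without replicate 4, and injured MRL differed from injured C57 tendons by 0.85 ± 0.37 (SE, adjusted p = 0.223, edgeR), which was not called.

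Tnmd, the tenomodulin gene, was set apart by 1 library. Its level was 163, 93.1, 82.7 and 57.3 CPM in the uninjured C57 tendons and 93.0, 118, 88.2 and 155 CPM in the injured C57 tendons, which overlapped. It was 149, 245, 126 and 55.8 CPM in the uninjured MRL tendons and 617, 79.6, 82.5 and 32.9 CPM in the injured MRL tendons. Injured MRL replicate 1 had more than 7 times the level of any other injured MRL library. The other 3 injured MRL libraries were below uninjured MRL replicates 1 to 3. With all libraries the log2 fold change in MRL was 0.51 ± 0.85 (SE, adjusted p = 0.741, edgeR), and without the library labelled MRL uninjured replicate 4 it was 0.25 ± 0.86 (SE, adjusted p = 0.891, edgeR). Without injured MRL replicate 1 it was -1.16 ± 0.47 (SE, adjusted p = 0.161, edgeR), a change of direction. Leaving out both of these libraries, a choice made after the data were seen, gave -1.42 ± 0.39 (SE, adjusted p = 0.0737, edgeR). In C57 tendon the log2 fold change was 0.16 ± 0.32 (SE, 95% interval -0.56 to 0.87, adjusted p = 0.870, edgeR) and -0.03 ± 0.28 (SE) without replicate 4. The difference between injured strains turned from 0.81 to -0.77 on the log2 scale without injured MRL replicate 1, with adjusted p-values of 0.618 and 0.248 by edgeR, so no direction can be given for Tnmd in MRL tendon.

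Thbs4, the thrombospondin 4 gene, rose after injury in MRL tendon. In uninjured MRL replicates 1 to 4 its level was 1872, 2009.9, 2762 and 2346 CPM, and in the injured MRL tendons it was 7454, 4602, 4269 and 5771 CPM. Every injured MRL library was above every uninjured one, and the rise was 2.47-fold (log2 fold change 1.31 ± 0.23 (SE), 95% interval 0.80 to 1.81, adjusted p = 0.00679, edgeR's quasi-likelihood test). Thbs4 was the sole called gene of the 5 in MRL, where 7.41% of 14274 genes were called. Without the library labelled MRL uninjured replicate 4 the rise was 2.53-fold (log2 fold change 1.34 ± 0.25 (SE), adjusted p = 0.0171, edgeR), and 6.11% of 14868 genes were called. The call was kept with each library left out in turn, with a log2 fold change of 1.10 to 1.41.

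In C57 tendon Thbs4 was at 1796, 1444, 1675 and 659.6 CPM without injury and at 2001, 2887, 3836 and 2479 CPM after injury. All 4 injured libraries were above all 4 uninjured ones. The log2 fold change was 0.96 ± 0.34 (SE, adjusted p = 0.228, edgeR) with all libraries and 0.74 ± 0.23 (SE, 95% interval 0.22 to 1.25, adjusted p = 0.0996) without replicate 4, so it was not called in either fit. When injured C57 replicate 1 was also left out, a choice made after the data were seen, it was 0.91 ± 0.18 (SE, adjusted p = 0.0183, edgeR), below the fold change required. The injured MRL tendons were each above the injured C57 tendons, by a log2 difference of 0.95 ± 0.26 (SE, 95% interval 0.36 to 1.54), which was not called (adjusted p = 0.0768, edgeR).

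Cilp, the cartilage intermediate layer protein gene, was called between the uninjured strains only when both libraries labelled replicate 4 were left out. In uninjured C57 replicates 1 to 4 its level was 5231, 5648, 7319.8 and 804 CPM, and in uninjured MRL replicates 1 to 4 it was 1948, 1631, 2298 and 6912 CPM. The library labelled C57 uninjured replicate 4 was below all MRL libraries, the library labelled MRL uninjured replicate 4 lay within the range of the other uninjured C57 libraries, and replicates 1 to 3 did not overlap between strains. With all libraries, uninjured MRL tendons had a log2 difference from uninjured C57 tendons of -0.58 ± 0.65 (SE, adjusted p = 0.837, edgeR), and 0% of 14055 genes were called by edgeR. In that fit 1106 genes had an unadjusted p under 0.05, 1 of the 5 among them, and DESeq2 called 102 genes and 0 of the 5. Without both replicates 4, Cilp was 3.12-fold lower in uninjured MRL tendon (log2 difference -1.64 ± 0.16 (SE), 95% interval -2.00 to -1.28, adjusted p = 0.000292, edgeR's quasi-likelihood test). Of 14274 genes, 3.48% were called in that comparison. Cilp was the sole called gene of the 5 there, and its difference was 69th by p-value. The other 4 were not called in that fit, with log2 differences of 0.42 ± 0.15 (SE, adjusted p = 0.167, edgeR) for Thbs4, 0.60 ± 0.30 (SE) for Tnmd, 0.43 ± 0.18 (SE) for Scx and -0.03 ± 0.17 (SE) for Mkx. With all libraries they were 0.67 ± 0.30 (SE) for Thbs4, 0.52 ± 0.43 (SE) for Tnmd, 0.53 ± 0.32 (SE) for Scx and 0.25 ± 0.29 (SE) for Mkx.

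After injury, Cilp was at 1998, 3474, 4696 and 4469.5 CPM in the C57 tendons and at 2737.5, 3292, 2815 and 1992.5 CPM in the MRL tendons. All 4 injured C57 libraries were below uninjured C57 replicates 1 to 3. The log2 fold change in C57 was -0.42 ± 0.56 (SE) with all libraries and -0.77 ± 0.28 (SE, adjusted p = 0.152, edgeR) without replicate 4. In MRL it was -0.24 ± 0.42 (SE) with all libraries and turned to 0.49 ± 0.22 (SE, adjusted p = 0.196, edgeR) without replicate 4. None of these values was called. Between the injured strains Cilp overlapped, with a log2 difference of -0.46 ± 0.28 (SE, adjusted p = 0.382, edgeR).

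**Figure D3:**
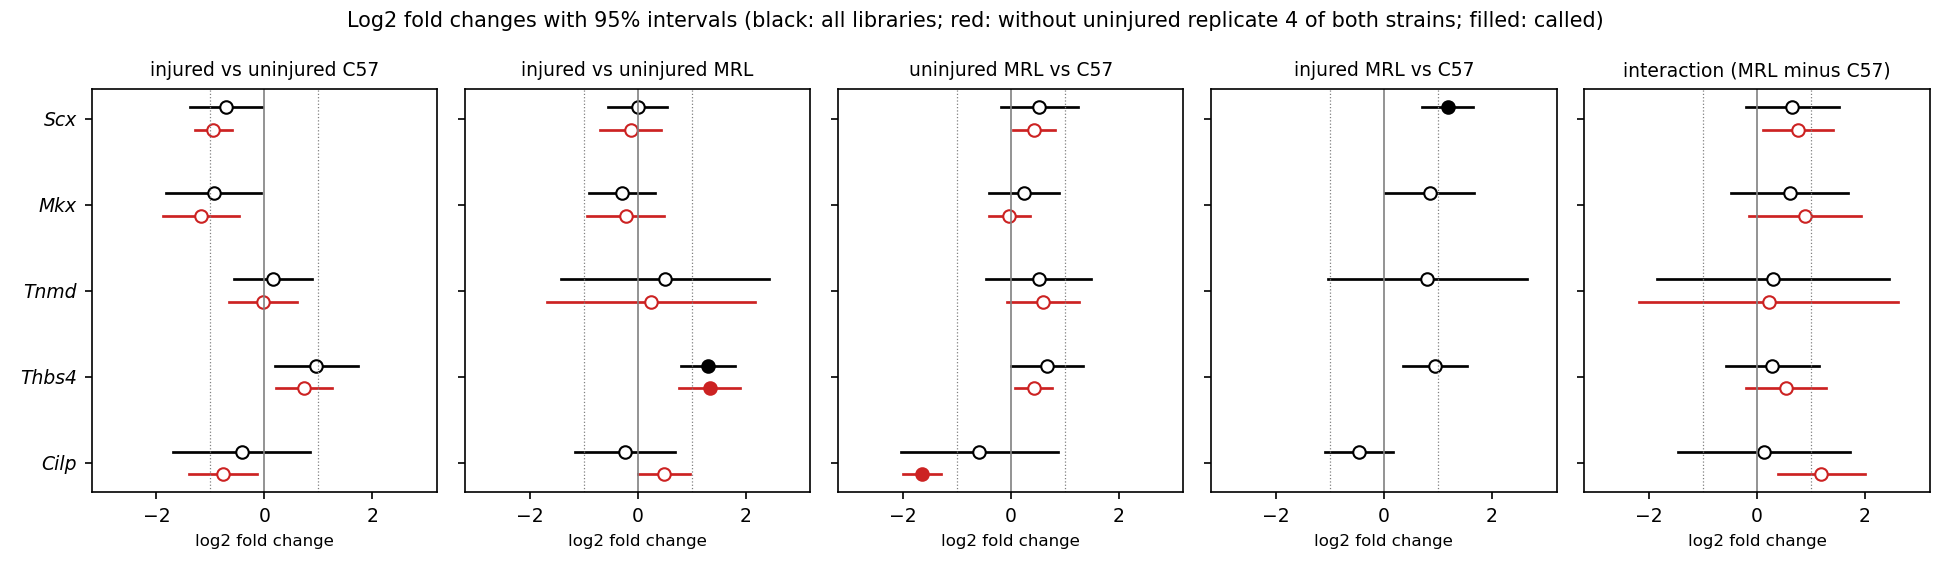
Log2 fold changes of the 5 genes with 95% intervals in 5 comparisons, with all libraries (black) and without the uninjured replicates 4 (red), filled where called. Filled points are Thbs4 in MRL after injury (1.31 and 1.34), Scx between the injured strains (1.18) and Cilp between the uninjured strains without replicates 4 (-1.64). The comparison of injured strains holds no uninjured library and has 1 fit.

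A strain-by-injury interaction, fitted on all 16 libraries, asked whether the response to injury differed between C57 and MRL. By edgeR 0% of 15947 genes passed an adjusted p under 0.05, although 1939 had an unadjusted p under 0.05 and DESeq2 called 221. Of the 5 genes, 0 had an unadjusted p under 0.05 with all libraries, and 0 were called by DESeq2. The interaction estimate, the log2 fold change of MRL minus that of C57, was 0.66 ± 0.41 (SE) for Scx, 0.60 ± 0.51 (SE) for Mkx, 0.30 ± 1.01 (SE) for Tnmd, 0.29 ± 0.41 (SE) for Thbs4 and 0.13 ± 0.75 (SE) for Cilp. Without both replicates 4, edgeR again called 0% of 16391 genes, with 1735 at an unadjusted p under 0.05. For Cilp the estimate was then 1.19 ± 0.38 (SE, 95% interval 0.39 to 1.99), with an adjusted p of 0.301 by edgeR. It was 0.76 ± 0.30 (SE, 95% interval 0.12 to 1.40) for Scx, with an adjusted p of 0.396, and 0.88 ± 0.49 (SE) for Mkx, with an adjusted p of 0.545, and 0.21 ± 1.10 (SE) for Tnmd, with an adjusted p of 0.979. Thbs4, called after injury in MRL and not in C57, had an interaction of 0.54 ± 0.35 (SE, adjusted p = 0.607, edgeR), so its response was not shown to differ between strains.

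Put side by side without the replicates 4, the means ordered the groups in a different way for each gene. Scx went from uninjured MRL (149.6 ± 32.3 CPM, SD, n = 3) through injured MRL (136 ± 37.9 CPM, SD, n = 4) and uninjured C57 (110.0 ± 15.1 CPM, SD, n = 3) to injured C57 (58.5 ± 5.70 CPM, SD, n = 4), and only the last pair did not overlap. Thbs4 went from injured MRL (5524 ± 1439 CPM, SD, n = 4) through injured C57 (2801 ± 779.6 CPM, SD, n = 4) and uninjured MRL (2215 ± 479 CPM, SD, n = 3) to uninjured C57 (1638 ± 179 CPM, SD, n = 3), and among these neighbours only the second pair overlapped. Cilp went from uninjured C57 (6066 ± 1105 CPM, SD, n = 3) to injured C57 (3659 ± 1229 CPM, SD, n = 4), injured MRL (2709 ± 537 CPM, SD, n = 4) and uninjured MRL (1959 ± 334 CPM, SD, n = 3), of which the first pair did not overlap. For Mkx and Tnmd every neighbouring pair of groups overlapped. With all libraries included, the last 2 places of Cilp and the first 2 of Mkx were exchanged.

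Of the paralogs, 10 of 11 were in the table and 7 were tested in C57 injury, since Tcf15, Irx1 and Irx2 did not pass the filter on low counts. Comp, cartilage oligomeric matrix protein and a relative of Thbs4, had 3420 to 6951 CPM in the injured C57 tendons and 6376 to 14799 CPM in the injured MRL tendons, a log2 difference of 1.06 ± 0.34 (SE, adjusted p = 0.115, edgeR). Cilp2, the relative of Cilp, had 1332 to 1552 CPM in uninjured C57 replicates 1 to 3 and 285 to 689 CPM after injury. It fell by 1.43 on the log2 scale without replicate 4 (SE 0.27, adjusted p = 0.0184, edgeR), whereas with all libraries the value was -1.17 with an adjusted p of 0.217. Thbs1 had 175 to 224 CPM in uninjured C57 replicates 1 to 3 and 84.2 to 97.3 CPM in uninjured MRL replicates 1 to 3, a log2 difference of -1.10 ± 0.13 (SE, adjusted p = 0.000814, edgeR). With both replicates 4 included it was -0.48 ± 0.45 (SE). Thbs1 was 1 of 2 called paralogs of 8 tested in that comparison of uninjured strains, in which 3.48% of all tested genes were called. The other was Irx5, a homeobox relative of Mkx, which had 3.63 to 7.45 CPM in uninjured C57 replicates 1 to 3 and 10.6 to 19.8 CPM in uninjured MRL replicates 1 to 3, a log2 difference of 1.61 ± 0.38 (SE, adjusted p = 0.0394, edgeR). With both replicates 4 included it was 0.29 ± 0.68 (SE). Irx5 was also called as lower after injury in MRL without replicate 4 (log2 fold change -1.40 ± 0.36 (SE), adjusted p = 0.0468, edgeR), at 4.22 to 7.93 CPM after injury, and with all libraries the value was -1.16 with an adjusted p of 0.0990. Thbs3 had a log2 fold change of -0.66 ± 0.16 (SE, adjusted p = 0.0260, edgeR) in MRL, below the size required for a call, and -0.61 ± 0.17 (SE, adjusted p = 0.0653) without replicate 4, and 0 of 7 paralogs were called there or in C57 with all libraries, beside 7.41% and 1.07% of all tested genes. Without replicate 4, 1 of 8 was called in MRL and 1 of 7 in C57, beside 6.11% and 5.01%.

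Beside the 5 genes stood a list of tenogenic transcription factors and signals and a list of tendon matrix and mature tenocyte genes. In C57 tendon, where 1.07% of 14424 genes were called, 0 of the 5 genes, 0 of 36 tenogenic genes and 0 of 36 matrix genes were called by edgeR, and 3 of the 5 genes had an unadjusted p under 0.05, as did 2204 of the 14424. DESeq2, which called 905 genes there, also called 0 of the 5. Without the library labelled C57 uninjured replicate 4, 5.01% of 14983 genes and again 0 of the 5 were called. In that fit 3.50% of genes were called as higher and 1.51% as lower. Of the tenogenic genes, 4 of 36 were then called and all were lower, with a list median of -0.50 beside -0.01 for all genes on the log2 scale. Six2, a homeobox gene, had a log2 fold change of -1.89 ± 0.24 (SE, adjusted p = 0.00454, edgeR), Prrx1, a limb mesenchyme homeobox gene, had -1.15 ± 0.24 (SE) and Bmp4, a secreted signal, had -1.32 ± 0.28 (SE). Spry1, an inhibitor of receptor tyrosine kinase signaling, fell from between 199.8 and 231 CPM in uninjured C57 replicates 1 to 3 to between 48.1 and 102 CPM (adjusted p = 0.0109, edgeR). With all libraries the log2 fold changes were -1.60 ± 0.43 (SE) for Six2, -0.92 ± 0.34 (SE) for Prrx1, -1.06 ± 0.40 (SE) for Bmp4 and -1.35 ± 0.28 (SE) for Spry1, with adjusted p-values between 0.0597 and 0.261 by edgeR. Of the 36 matrix genes, 3 were higher and 7 lower without replicate 4. Aspn (1.11 ± 0.22, SE), Fbn1, the gene of fibrillin 1 (1.57 ± 0.33, SE), and Ogn (1.39 ± 0.33, SE) rose on the log2 scale, and Igfbp6 (-1.53 ± 0.19, SE), Fibin (-1.51 ± 0.20, SE), Prelp (-1.26 ± 0.21, SE) and Angptl7 (-1.66 ± 0.28, SE) fell. With all libraries these values were 1.23 ± 0.25 (SE) for Aspn, 1.83 ± 0.44 (SE) for Fbn1, 1.48 ± 0.32 (SE) for Ogn, -1.29 ± 0.34 (SE) for Igfbp6, -1.30 ± 0.30 (SE) for Fibin, -1.001 ± 0.370 (SE) for Prelp and -1.39 ± 0.43 (SE) for Angptl7, and none was called (adjusted p-values from 0.0556 to 0.251, edgeR). The median of the matrix list was 0.30 without replicate 4 and 0.52 with all libraries, and that of the tenogenic list with all libraries was -0.31, beside -0.05 for all genes.

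In MRL tendon 5.25% of all tested genes were called as higher and 2.15% as lower with all libraries, and 4.68% and 1.43% without replicate 4. With all libraries 1 of 36 tenogenic genes was called as higher and 6 as lower, with a median log2 fold change of -0.52 beside -0.03 for all genes. Tgfb1 rose (1.07 ± 0.25 (SE), adjusted p = 0.0241, edgeR), and Tgfbr3, a TGF-β coreceptor (-1.43 ± 0.22, SE), Fgf18 (-1.32 ± 0.31, SE), Pdgfrb (-1.01 ± 0.25, SE) and Bmp4 (-1.43 ± 0.37, SE) were among the genes that fell. Of the matrix genes, 11 of 36 were higher and 3 lower, with a median of 0.45. Tnc, tenascin C, rose from 0.399 to 2.39 CPM in the uninjured to 44.7 to 188 CPM in the injured MRL tendons. Fbn1 (1.39 ± 0.19, SE), Col6a3 (1.84 ± 0.26, SE) and Lox, a collagen crosslinking enzyme (1.37 ± 0.22, SE), rose with it, and Tnxb (-2.51 ± 0.39, SE), Chad, chondroadherin (-1.84 ± 0.38, SE), and Igfbp6 (-1.15 ± 0.28, SE) fell. Without replicate 4, the counts were 2 higher and 3 lower of 37 tenogenic genes, and 8 higher and 2 lower of 36 matrix genes, with list medians of -0.38 and 0.38. The log2 fold changes of the called tenogenic genes named here were then 1.25 ± 0.26 (SE) for Tgfb1, -1.25 ± 0.22 (SE) for Tgfbr3, -1.31 ± 0.34 (SE) for Fgf18 and -1.07 ± 0.27 (SE) for Pdgfrb, and Bmp4 was no longer called (-1.27 ± 0.40 (SE), adjusted p = 0.0888, edgeR). Fgf18 was close to the threshold (adjusted p = 0.04997, edgeR). Of the matrix genes, Tnc (6.58 ± 0.77, SE), Fbn1 (1.29 ± 0.19, SE), Col6a3 (1.96 ± 0.29, SE), Lox (1.52 ± 0.22, SE), Tnxb (-2.33 ± 0.41, SE) and Chad (-1.60 ± 0.39, SE) were called, and Igfbp6 was not (-1.13 ± 0.32 (SE), adjusted p = 0.0649, edgeR).

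**Figure D4:**
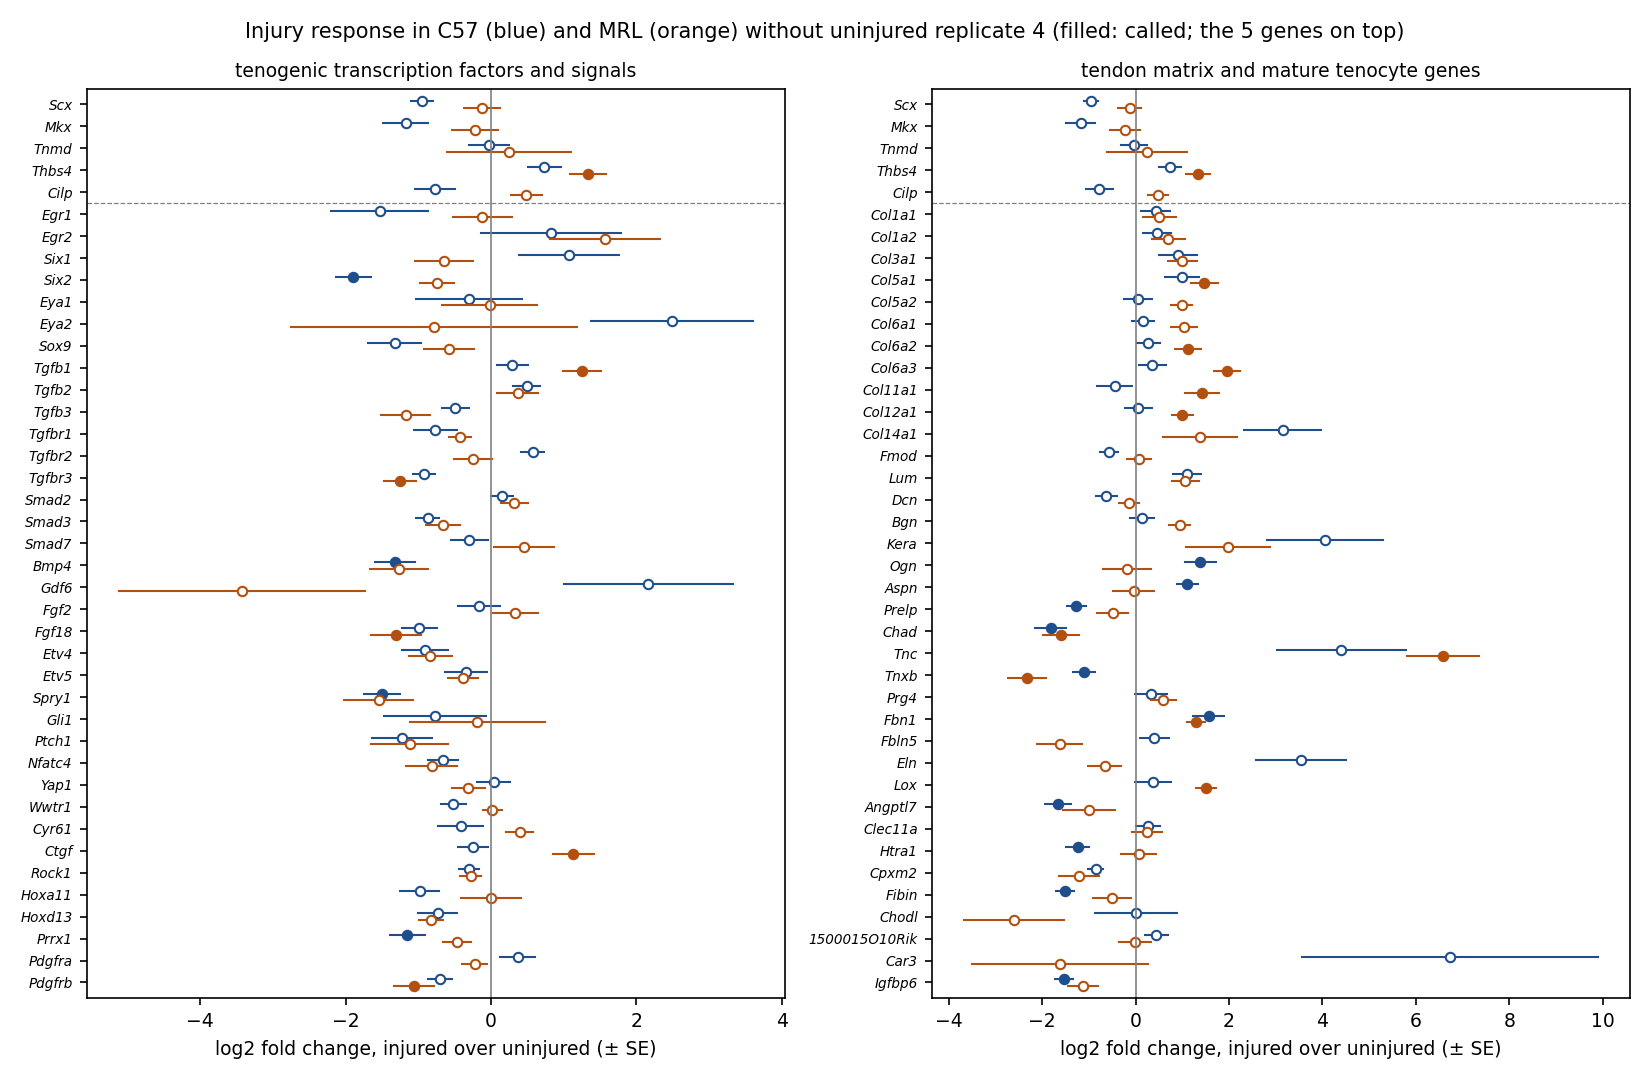
Log2 fold changes after injury (± SE) in C57 (blue) and MRL (orange) tendons for the 5 genes, above the dashed line, and for the tested genes of the tenogenic list (left) and of the matrix list (right), without the uninjured replicates 4. Filled points are called. Six2, Spry1, Prrx1 and Bmp4 are filled in C57, and Thbs4 is the one filled point above the line, in MRL.

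Markers of other cell types were followed through injury as well. Macrophage markers took 0.0694% to 0.188% of counts in the uninjured C57 libraries (at least 0.166% without replicate 4) and 0.478% to 0.955% in the injured ones, and 0.0952% to 0.159% and 0.343% to 0.663% in MRL. The marker counts after injury stand beside 0.908% of all tested genes called as higher and 0.166% as lower in C57 (3.50% and 1.51% without replicate 4), and 5.25% and 2.15% in MRL (4.68% and 1.43%). Of 12 macrophage markers, 5 were called as higher in C57 (Cd68, Lyz2, C1qa and Mrc1 among them) and 10 without replicate 4, and 6 in MRL (5 without replicate 4), led by Lyz2 with log2 fold changes of 2.61 ± 0.30 (SE) in C57 and 2.38 ± 0.27 (SE) in MRL, which were 2.44 ± 0.24 (SE) and 2.30 ± 0.29 (SE) without replicate 4. Sheath and paratenon genes took 1.81% to 4.32% of counts in injured MRL tendons and 5.41% to 8.76% in uninjured ones (at least 7.66% without replicate 4), and Gsn (-2.03 ± 0.48, SE) and Clec3b (-1.82 ± 0.41, SE) fell there, 2 of 10 tested, and were -2.19 ± 0.51 (SE) and -1.97 ± 0.44 (SE) without replicate 4. Gsn and Prg4 had the highest means of this list (33686 and 7740 CPM over the 16 libraries) and so weigh most in its share. The list median of the log2 fold changes in MRL was -0.23, and -0.16 without replicate 4. In C57 1 of these 10 was called, Pi16, which had 3.63 to 11.7 CPM without injury and 109.8 to 382 CPM after it, and without replicate 4 Gsn fell as well (-1.45 ± 0.33 (SE), against -1.36 ± 0.35 with all libraries). Myofibroblast markers had 1 of 8 called in C57, Postn, and 0 without replicate 4, and 2 of 7 in MRL, Cthrc1, at 46.9 to 131 CPM after injury, and Lrrc15, at 8.60 to 20.2 CPM, both of which were called without replicate 4 as well. Of the cartilage markers, 0 of 6 were called in C57, and in MRL Acan rose and Cytl1 fell. Without replicate 4, Hapln1 of the cartilage list fell and Emcn of the endothelium list rose in C57, and Acan and Tnni2 were no longer called in MRL. Epidermis markers had 0 of 9 called in both strains, endothelium markers 0 of 6, and skeletal muscle markers 0 of 7 in C57 and 1 of 4 in MRL, Tnni2, which reached 11.7 CPM. Between the injured strains, where Scx was higher in MRL and 1.55% of tested genes were called as higher and 1.88% as lower, 4 of 12 macrophage, 1 of 8 myofibroblast and 2 of 6 endothelium markers were lower in MRL and 2 of 6 cartilage markers were higher, and 0 were called of the sheath, epidermis and muscle lists. Endothelium markers took 0.00983% to 0.0168% of counts in injured C57 and at most 0.00235% in injured MRL tendons, and cartilage markers 0.0246% to 0.0554% and 0.0143% to 0.0991%, so that the cartilage shares overlapped. The part of these cells in the levels of the 5 genes was not tested.

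Genes with the pattern most like each of the 5 were ranked by Pearson's r of log2 CPM over the 16 libraries, among 15946 genes. These values describe libraries that share strain, injury and tissue composition, and without both uninjured replicates 4 they were taken over 14 libraries. For Scx they were C1galt1c1 (0.91), Fmod (0.91), Gm15241 (0.90), Dcn (0.90) and Mrgprf (0.90), where Fmod and Dcn encode the tendon proteoglycans fibromodulin and decorin. For Mkx they were Tgoln1 (0.94), Arhgef19 (0.92), Yipf4 (0.92), Prrx1 (0.92) and Tle6 (0.92). Thbs4 was followed by Calu (0.95), Ywhah (0.95), Ncf4 (0.94), Dpagt1 (0.92) and Nipsnap3b (0.91), and Cilp by Abl2 (0.93), Gprc5a (0.92), Gm21092 (0.91), Reep3 (0.90) and A4galt (0.89). Tnmd was followed by H2-T23 (0.87), Tapbp (0.79), Faap100 (0.79), Med17 (0.79) and Ptn (0.78). When the 2 libraries farthest from the median of Tnmd were left out, injured MRL replicates 1 and 4, these values were 0.60 for H2-T23, 0.52 for Tapbp, 0.76 for Faap100, 0.71 for Med17 and 0.54 for Ptn. Without both uninjured replicates 4, the 5 genes named for Scx had an r of 0.86 to 0.92, those for Mkx 0.90 to 0.94, those for Thbs4 0.88 to 0.93, those for Cilp 0.83 to 0.88 and those for Tnmd 0.75 to 0.93. The gene ranked first stayed first for Scx, Mkx and Tnmd, whereas Calu was then 6th for Thbs4 and Abl2 4th for Cilp.

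Among the 5 genes, Scx and Mkx were the pair most alike. They had an r of 0.78 (0.68 without the 2 libraries farthest from the median of Scx, and 0.79 without both uninjured replicates 4), which placed Mkx 93rd among the genes most like Scx and Scx 134th among those most like Mkx. Scx and Tnmd had an r of 0.47, and 0.41 without both replicates 4. Mkx and Cilp had an r of 0.44, which was 0.17 without the 2 libraries farthest in Mkx, 0.28 without the 2 farthest in Cilp and 0.26 without both replicates 4. Scx and Thbs4 had an r of 0.40, which was 0.07 without the 2 libraries farthest in Scx, -0.09 without the 2 farthest in Thbs4 and 0.15 without both replicates 4. Cilp and Tnmd had an r of -0.01, and -0.11 without both replicates 4.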

How the data were processed

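RNA-seq was performed on 16 libraries of mouse flexor tendon, 4 per group. Per the submitters' processing notes, the authors trimmed reads with Trimmomatic 0.36, mapped them with STAR 2.5.2b to GRCm38.p5, and counted with featureCounts of Subread 1.5.0p3. The authors deposited unnormalized whole-number counts of 49568 symbols, of which 19842 had no count in any library. Which annotation and strand setting were counted is not given in the sources used here. The methods describe pre-amplified low-input libraries and the labels a different kit, so counting error alone may understate technical error. Totals per library were 12552424 to 23741648, and the injured MRL libraries were the deepest.

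Groups came from the labels. The uninjured replicate numbers are the labels', and the injured libraries were numbered in accession order. Counts were tested with edgeR 4.0.16 in R 4.3.3 (expression filter, TMM, robust quasi-likelihood test) within each strain, between strains and as an interaction over all groups. Genes were called at a Benjamini-Hochberg adjusted p under 0.05 with a log2 fold change beyond 1 in either direction, and the interaction at the adjusted p alone. The SE is the log2 fold change divided by the root of its F statistic. CPM used TMM-adjusted sizes over all 16 libraries, with a prior count of 2 on the log2 scale. Lists were described by counts and medians. From each list, up to 4 called genes per direction with the smallest adjusted p, or the 2 of highest level where none was called, could be named, and the 5 genes most correlated with each of the 5 genes were named. The genes and lists were chosen with earlier results of these data known.

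On simulated counts with 200 changed genes, the C57 fit called 94 of 13875 genes, of which 91 were changed, and the MRL fit 124 of 13731, of which 117 were changed. Alternatives were DESeq2 1.42.0, other size factors, other filters, 1 fit of all libraries, the replicate number as a block and leaving out libraries.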

Additional observations from a re-analysis of the deposited data

Results flagged for a closer look

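Within each group of 4 libraries, the highest or lowest value of the 5 genes was compared with the others by Dixon's test of the gap to its neighbour. Chance alone is expected to flag about 1 in 20 groups, and 20 groups were tested. Mkx in the library labelled C57 uninjured replicate 4 had 43.9 CPM, below the 111 to 113 CPM of the other 3 libraries. Cilp reached 6912 CPM in the library labelled MRL uninjured replicate 4, above the 1631 to 2298 CPM of the others and inside the range of uninjured C57 replicates 1 to 3. Tnmd in injured MRL replicate 1 had 617 CPM, above the 32.9 to 82.5 CPM of the others. The first of these libraries also held the epidermis markers, the first and the second went against their strain labels, and the part of either in these values was not tested.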

How the results depend on the processing

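The calls of the 5 genes were the same with DESeq2, other size factors, other filters and 1 fit of all libraries as in the values reported. DESeq2 called 905 genes in C57 (edgeR 155), 1807 in MRL (1057), 221 for the interaction (0), 102 between uninjured strains (0) and 1477 between injured strains (502). A single fit of all 16 libraries called 367 in C57 and 227 between injured strains, and no filter called 1 gene between uninjured strains. Leaving out both uninjured replicates 4 gave 497 genes between uninjured strains and 1 of the 5 genes, Cilp. With 1 library left out at a time, 10 to 750 genes were called in C57, 689 to 1260 in MRL, 231 to 481 between injured strains and 0 to 3 between uninjured strains, and 0 to 1 of the 5 genes between injured strains. The 750 came without the library labelled C57 uninjured replicate 4. In 2 alternatives chosen after seeing the data, C57 without uninjured replicate 4 and injured replicate 1 had 867 genes called, and MRL without uninjured replicate 4 and injured replicate 1 had 659.

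Over log2 fold changes of the 5 genes, 415 alternative values kept direction and side of the threshold, 18 changed direction, 1 call was lost (Scx between injured strains without injured C57 replicate 4) and 1 was gained (Cilp between uninjured strains without both replicates 4). With 1 library left out, Tnmd ranged from -0.0263 to 0.50 in C57, from -1.16 to 0.89 in MRL, from -1.35 to 0.68 for the interaction and from -0.77 to 1.19 between injured strains. Scx ranged from -0.20 to 0.15 in MRL (0.000235 with no filter), and Cilp from -0.45 to 0.49 in MRL and from -0.15 to 0.84 for the interaction. Mkx between uninjured strains was -0.0261 without both replicates 4. In MRL without uninjured replicate 4 and injured replicate 1, Tnmd was -1.42 and Cilp was 0.45. The cause of these changes was not tested.

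With the replicate number of the uninjured tendons as a block, 0 genes and 0 of the 5 were called between uninjured strains by edgeR. Same-numbered libraries correlated at -0.26, 0.02, -0.10 and -0.23 in their deviations from the group means. Both uninjured libraries that went against their strain labels were among them, so these values cannot decide whether the numbers paired the samples. On simulated counts in the C57 design, 2 of 50 genes with a true log2 fold change of 1 and 19 of 50 with one of 2 were called, and in the MRL design 7 and 31 of 50. A call needed an estimate beyond 1, so the cutoff itself limited recovery at a true value of 1. The simulated spread came from fits of all libraries, with uninjured replicate 4 included.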

Other observations

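Beside Cilp and Scx, the strains differed in other tendon and cartilage genes. Without both replicates 4, 2.07% of all tested genes were called as higher in uninjured MRL tendon and 1.41% as lower, and 4 of 6 tested cartilage markers were called as higher in uninjured MRL than in uninjured C57 tendon. Acan, the aggrecan gene, differed by 1.96 ± 0.25 (SE, adjusted p = 0.00153, edgeR) on the log2 scale, Col2a1, type II collagen, by 2.20 ± 0.31 (SE), Hapln1, a hyaluronan link protein, by 1.47 ± 0.21 (SE) and Ucma by 3.09 ± 0.34 (SE). With all libraries 0 of 6 were called by edgeR, with log2 differences of 2.01 ± 0.29 (SE) for Acan, 1.64 ± 0.61 (SE) for Col2a1, 1.13 ± 0.27 (SE) for Hapln1 and 2.54 ± 0.47 (SE) for Ucma. Of the 36 matrix genes, 3 were called as higher in uninjured MRL tendon, among them Lum, the small leucine-rich proteoglycan lumican, by 1.60 ± 0.26 (SE), and Clec11a by 2.09 ± 0.19 (SE), whereas Cilp was lower. With all libraries Lum differed by 1.49 ± 0.29 (SE) and Clec11a by 1.56 ± 0.43 (SE), and neither was called. Without both replicates 4, Etv4 (1.09 ± 0.27, SE) of the tenogenic list was also called as higher in uninjured MRL tendon and Hoxa11 (-1.62 ± 0.34, SE) and Bmp4 (-1.09 ± 0.21, SE) as lower, 3 of 35. The sheath list had 1 of 10 called, Cd34 (1.10 ± 0.09, SE), the myofibroblast list 1 of 6, Fap (1.24 ± 0.29, SE), although the list median was -1.26, and the macrophage list 2 of 12, C1qb (-1.15 ± 0.24, SE) and Cd14 (-1.34 ± 0.19, SE), and with all libraries 0 of these were called by edgeR.

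At 7 dpi, where 1.55% of all tested genes were called as higher in MRL and 1.88% as lower, Lum was again higher in MRL than in C57 tendon by 1.48 ± 0.30 (SE, adjusted p = 0.0258, edgeR) and Clec11a by 2.01 ± 0.34 (SE), among 4 matrix genes that were higher and 1, Tnxb, that was lower. Six2 was the 1 tenogenic gene of 37 called there, higher in MRL by 1.47 ± 0.28 (SE, adjusted p = 0.0193, edgeR). Of the 12 macrophage markers 4 were called as lower in injured MRL tendon, among them C1qb (-2.12 ± 0.39, SE) and Csf1r (-1.39 ± 0.29, SE), and of 8 myofibroblast markers 1, Acta2 (-3.38 ± 0.67, SE). Of 6 endothelium markers 2 were also lower, Pecam1 (-3.75 ± 0.83, SE) and Cldn5 (-5.24 ± 1.18, SE), and of 6 cartilage markers 2 were higher, Acan (3.78 ± 0.75, SE) and Hapln1 (3.57 ± 0.53, SE). Cytl1, the cartilage marker of highest level, had a log2 difference in the other direction, -3.14 ± 0.93 (SE, adjusted p = 0.103, edgeR), and was not called. These genes were named after their values were seen.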
